A study of Mus musculus with 4 samples.

Results

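The p53 protein, encoded by Trp53, is a transcription factor that is kept scarce by the ubiquitin ligase Mdm2 and accumulates after DNA damage and other stress. It then binds DNA sites near its target genes, among them Mdm2 itself, and so drives its own feedback loop beside genes of cell cycle arrest, apoptosis, DNA repair and metabolism. Because this control acts mainly on protein stability, Trp53 transcript levels need not follow p53 activity, and the target transcripts are the usual readout of it in RNA. The genes described here are Trp53, Mdm2 and the further targets Ccng1, Phlda3, Zmat3, Sesn1, Eda2r, Aen, Pmaip1 and Trp53inp1. They were taken by symbol, and all 10 were found among the 55401 rows of the deposited gene table, each on 1 row.

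RNA was sequenced from mouse cells that the labels call female germline stem cells, of C57BL/6 ovary, in 2 groups. The first group was treated with daidzein, an isoflavone of soy and a ligand of oestrogen receptors, and holds 2 libraries. The second received the solvent DMSO and also holds 2 libraries. Both groups grew in the same serum-containing alpha-MEM medium supplemented with LIF, GDNF, bFGF and EGF, growth factors used to sustain stem cells in culture, and no genetic change is stated for either. The sources used here give no daidzein dose or length of treatment, and do not state that replicates were separate cultures, so the p-values measure the spread between these libraries, which may be technical. The study asked what daidzein changes in these cells, with the Akt pathway, proliferation and Clec11a named in its title.

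Deposited counts summed to 17192077 and 18537134 reads in the daidzein libraries and to 16230400 and 17119625 in the DMSO libraries. Most listed transcripts that mark germ cells were close to absent in both groups. Of 14 listed germline genes, 10 had at most 3 reads over all 4 libraries, including Ddx4, and Pou5f1 had 0. Of 13 listed genes of ovarian somatic cells, 7 had at most 3 reads in all. In each of these lists 2 genes passed the filter on low counts. In the germline list they were Zbtb16, at 0.74 to 1.03 FPKM, and Gdf9, at 0.06 to 0.33 FPKM. In the ovarian list they were Star, at 0.96 to 1.47 FPKM, and Amh, at 0.66 to 1.1 FPKM. The 13 listed genes of mast and other blood cells were mixed: 8 passed the filter on low counts and 5 did not. Among the 8, Cpa3 was at 464 to 509 FPKM over the 4 libraries, Gata2 at 235 to 255 and Kit at 69.3 to 73.9. The macrophage marker Adgre1 was at 36.04 to 40.52 FPKM, Spi1 at 33.39 to 37.95 FPKM and Ptprc at 8.72 to 9.39 FPKM. Gata1 was at 1.31 to 2.08 FPKM and Ms4a2, a subunit of the high-affinity IgE receptor, at 1.02 to 1.73 FPKM. The 5 that did not pass included mast cell genes: Fcer1a, the IgE-binding subunit of that receptor, and the T cell gene Cd3e had 0 reads, and over all 4 libraries Hdc, which makes histamine, had 9 reads, the B cell gene Cd79a 6 and the macrophage gene Csf1r 4. FPKM is the authors' read count per kilobase of exon, scaled to the total of the library, and it is used wherever levels of different genes are compared. In bulk RNA such as this, fewer cells of a type and less RNA per cell cannot be told apart.

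The p53 gene was well expressed together with a graded set of its targets, while Phlda3 and Eda2r were almost without reads. Mean levels over the 4 libraries ran, from high to low, Ccng1 at 40.8, Trp53 at 40.5, Aen at 21.96, Mdm2 at 11.4, Pmaip1 at 10.8, Sesn1 at 3.95, Zmat3 at 1.95, Trp53inp1 at 0.657, Phlda3 at 0.0100 and Eda2r at 0.0025 FPKM. The order has 3 pairs of neighbours whose ranges over the libraries overlap, namely Ccng1 with Trp53, Mdm2 with Pmaip1, and Phlda3 with Eda2r. The remaining neighbours were separated in every library, the closest being Trp53 and Aen at a 1.85-fold ratio of means. No member was called different between daidzein and DMSO: edgeR's quasi-likelihood test, Benjamini-Hochberg adjusted over all genes tested, called 0 of the 8 members with enough reads, where 0.0171% of the 11700 genes tested were called (2 genes, Fos and Fosb, both lower with daidzein).

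**Figure D1:**
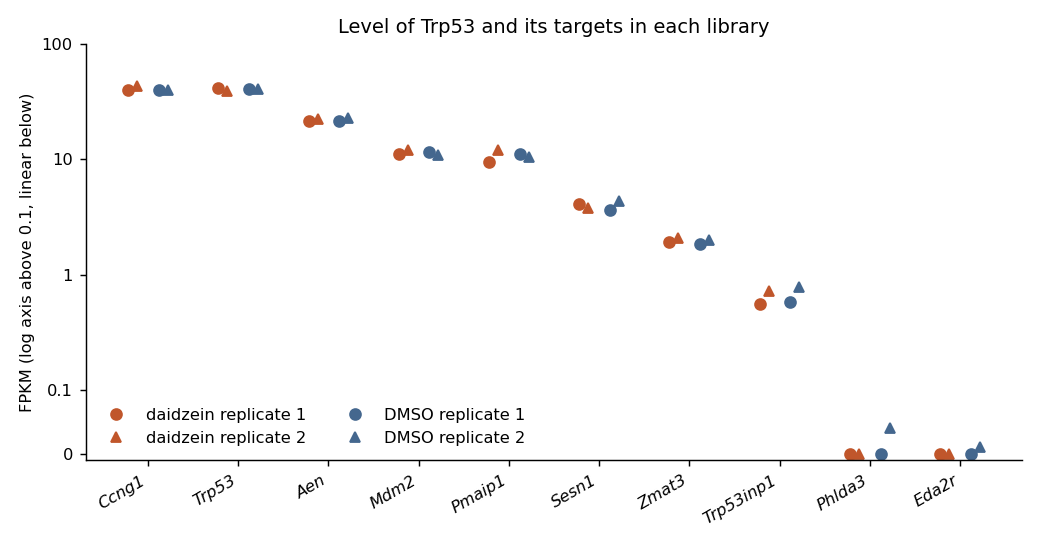
FPKM of Trp53 and 9 of its targets in the 2 daidzein libraries (orange) and the 2 DMSO libraries (blue), circles for replicate 1 and triangles for replicate 2; the axis is logarithmic above 0.1 and linear below. Levels fall from about 40.8 FPKM for Ccng1 to 0.657 for Trp53inp1, and Phlda3 and Eda2r lie at or near 0 in every library.

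Trp53 (ENSMUSG00000059552; GRCm38 chromosome 11, 69580359 to 69591873, plus strand; protein-coding) stood above 91.8% of the 19575 genes with a read. It had 41.3 and 39.0 FPKM in the daidzein libraries, against 40.9 and 40.9 FPKM in the DMSO libraries. The DMSO libraries were nearly equal and lay between the daidzein libraries. Its fold with daidzein was 0.980, with a 95% interval of 0.899 to 1.07 and an edgeR adjusted p of 1.00. The neighbouring gene Wrap53 lies 103 bases away on the opposite strand, does not overlap Trp53 in the annotation, and was read at 10.6 and 8.95 FPKM with daidzein against 10.9 and 8.73 FPKM with DMSO.

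The transcripts of the feedback arm, Mdm2 and Ccng1, also differed little. Mdm2 (ENSMUSG00000020184; chromosome 10, 117688875 to 117710758, minus strand) encodes the ligase that marks p53 for degradation. It had 11.1 and 11.9 FPKM with daidzein, against 11.5 and 10.9 FPKM with DMSO. The groups overlapped, and the fold was 1.03 (95% interval 0.921 to 1.15, edgeR adjusted p 1.00). Per length, Mdm2 stood at 0.269 and 0.306 of the Trp53 level in the daidzein libraries and at 0.281 and 0.266 of it in the DMSO libraries.

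Ccng1 (ENSMUSG00000020326; chromosome 11, 40748552 to 40755311, minus strand) encodes cyclin G1, which directs protein phosphatase 2A to Mdm2. It had 40.0 and 43.6 FPKM with daidzein, against 39.7 and 40.0 FPKM with DMSO, so that the FPKM ranges overlapped slightly. On CPM (counts scaled to library size) after TMM, edgeR's normalization, it had 141.2 and 152.5 with daidzein, against 140.1 and 140.1 with DMSO. On that scale it was the 1 member of the 8 tested whose groups did not overlap, while 29.7% of all genes tested had groups that did not overlap (14.7% with daidzein higher and 15% with daidzein lower). The fold was 1.05 (95% interval 0.958 to 1.15), with an edgeR adjusted p of 1.00. Without daidzein replicate 2 the log2 difference of 0.07 became 0.01.

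Of the 7 members with a promoter sequence, Ccng1 was the 1 that held a close match to the p53 consensus, the 20-base site to which a p53 tetramer binds. RefSeq promoter windows of GRCm38.p6, from 250 bases before to 50 after an annotated start, covered 7 of the 10 members (Trp53, Mdm2, Ccng1, Phlda3, Sesn1, Eda2r and Aen). Each window was searched on both strands for the consensus without a spacer, with the C and G of both cores kept and at most 1 mismatch. Of 17491 protein-coding genes with a window, 11 held such a match, which is 0.0629%. Of 63 further targets with a window, 3 held it, namely Cdkn1a, Rps27l and Gtse1. The match of Ccng1 is shown beside those of Cdkn1a and Rps27l, whose levels are given further on. These windows carry close matches to the letters that p53 recognises. Capitals mark the 20 bases of the match and lower case the flanks, all 5′ to 3′ on the strand of the gene.
Ccng1: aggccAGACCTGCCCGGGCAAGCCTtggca
Cdkn1a: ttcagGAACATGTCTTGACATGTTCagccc
Rps27l: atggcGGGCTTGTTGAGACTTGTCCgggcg
The Ccng1 match lies at chromosome 11, 40755462 to 40755481, and begins 195 bases before the RefSeq start. Its mismatch is W5C, counted from 1 at the 5′ end of the match and with W standing for A or T. The Cdkn1a match lies at chromosome 17, 29090928 to 29090947, with mismatch R11T, where R is A or G. The Rps27l match lies at chromosome 9, 66946296 to 66946315, with mismatch Y10G, where Y is C or T. It lies before the RefSeq start. In the GENCODE M21 annotation Rps27l starts at 66946086 on the plus strand, so there the match lies within the gene. A match describes the letters only and is no measurement of binding. Only stretches that kept the C and G of both cores were scored. The closest of these had 3 mismatches in the windows of Trp53, Sesn1 and Aen, 5 in Phlda3, and 9 in Mdm2 and Eda2r. Stretches without those core letters were not scored and may have fewer mismatches. The p53 sites known for Mdm2 lie in its first intron, outside such a window.

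Of the members tied to cell death, Aen and Pmaip1 were expressed without a difference that passed the test. Aen (ENSMUSG00000030609; chromosome 7, 78895854 to 78911209, plus strand) encodes a nuclease that enhances apoptosis. It had 21.7 and 22.1 FPKM with daidzein, against 21.4 and 22.7 FPKM with DMSO, the daidzein libraries lying between the DMSO libraries. The fold was 0.995 (95% interval 0.909 to 1.09, edgeR adjusted p 1.00). Pmaip1 (ENSMUSG00000024521; chromosome 18, 66458533 to 66465565, plus strand) encodes Noxa, a protein that blocks the survival factor Mcl1. It had 9.47 and 12.1 FPKM with daidzein, against 11.1 and 10.6 FPKM with DMSO. Here the DMSO libraries lay between the daidzein libraries, which held both the lowest and the highest value. The fold was 0.998 (95% interval 0.853 to 1.17, edgeR adjusted p 1.00).

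Phlda3 and Eda2r were at the limit of detection. Phlda3 (ENSMUSG00000041801; chromosome 1, 135766119 to 135769136, plus strand) encodes a protein that competes with Akt for membrane lipids, and Akt is the kinase named in the title of the series. It had 0 and 0 reads with daidzein, against 0 and 1 with DMSO. A library at 0 could hold up to 3 reads, which is 0.112 and 0.104 FPKM in the daidzein libraries, and against that floor the Trp53 level was at least 369-fold and 376-fold higher. Eda2r (ENSMUSG00000034457; chromosome X, 97333840 to 97377216, minus strand) encodes a receptor of the tumour necrosis factor family. It also had 0 and 0 reads with daidzein, against 0 and 1 with DMSO, with floors of 0.0296 and 0.0275 FPKM in the daidzein libraries. Neither gene had enough reads to test, and a difference below these floors was not detectable at this depth. These floors cover counting error only.

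The members linked to stress adaptation and RNA control had lower levels than the other tested members and did not pass either. Sesn1 stood above 62.2%, Zmat3 above 54.5% and Trp53inp1 above 45.3% of the genes with a read. Sesn1 (ENSMUSG00000038332; chromosome 10, 41809935 to 41908424, plus strand) encodes sestrin 1, which restrains the growth kinase complex mTORC1. It had 4.10 and 3.75 FPKM with daidzein, against 3.65 and 4.31 FPKM with DMSO, the daidzein libraries lying between the DMSO libraries. The fold was 0.985 (95% interval 0.819 to 1.18, edgeR adjusted p 1.00). The transcript 9930024M15Rik is annotated within its span on the same strand. Trp53inp1 (ENSMUSG00000028211; chromosome 4, 11156431 to 11174379, plus strand) encodes a stress protein of autophagy and cell death. It had 61 and 87 reads with daidzein, against 61 and 87 reads with DMSO, or 0.550 and 0.720 FPKM against 0.580 and 0.780 FPKM. In both groups replicate 2 was higher, and the fold was 0.933 with the widest interval of the members, 0.672 to 1.296 (edgeR adjusted p 1.00). Zmat3 (ENSMUSG00000027663; chromosome 3, 32334792 to 32366014, minus strand) encodes a zinc finger protein that binds RNA and affects splicing. It had 1.90 and 2.07 FPKM with daidzein, against 1.85 and 1.99 FPKM with DMSO, with overlapping groups and a fold of 1.03 (95% interval 0.888 to 1.21, edgeR adjusted p 1.00).

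**Figure D2:**
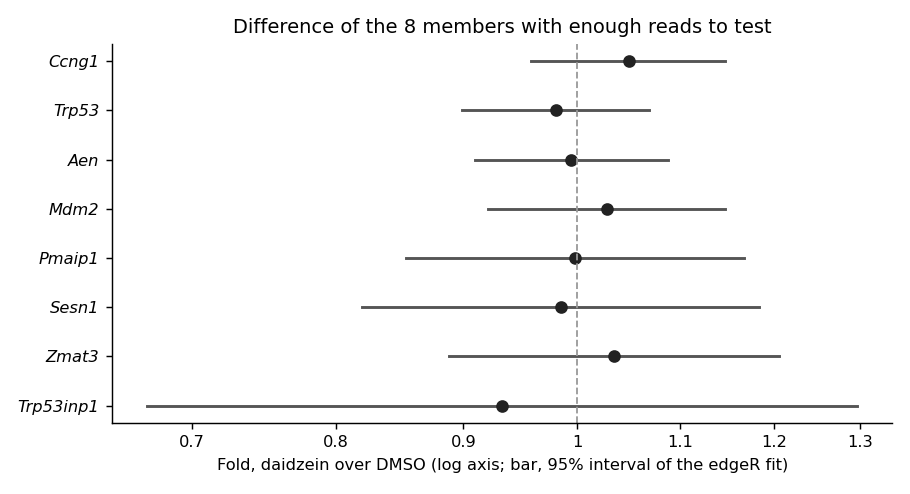
Fold of daidzein over DMSO (points, log axis) with the 95% interval of the edgeR fit (bars) for the 8 members with enough reads, ordered by level, 2 libraries a group. Every interval includes 1; the widest, of Trp53inp1, runs from 0.672 to 1.296.

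With daidzein 3 of the 8 were higher and 5 lower, beside 5697 higher and 6003 lower of all genes tested. By edgeR 0 of the 8 reached even an unadjusted p under 0.05, against 2.91% of all genes tested. DESeq2 and limma trend on log2(FPKM + 1) also called 0 of the 8. Over all genes they called 0.0102% of 19575 and 0% of 11209. The median log2 difference of the 8 was -0.0053, beside -0.0027 over all 11700 genes, and it was 0.0793 without daidzein replicate 1 and 0.0521 without DMSO replicate 2. The median size of the difference regardless of sign was 0.03 for the 8 and 0.06 for all genes on the log2 scale. These medians were not matched for level, and differences of genes with few reads scatter more widely. For the 4 members with the most reads, Trp53, Ccng1, Aen and Mdm2, the intervals lay between 0.899 and 1.15, and larger changes lie outside these 95% intervals. A p that misses the threshold does not show that the levels were equal.

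**Figure D3:**
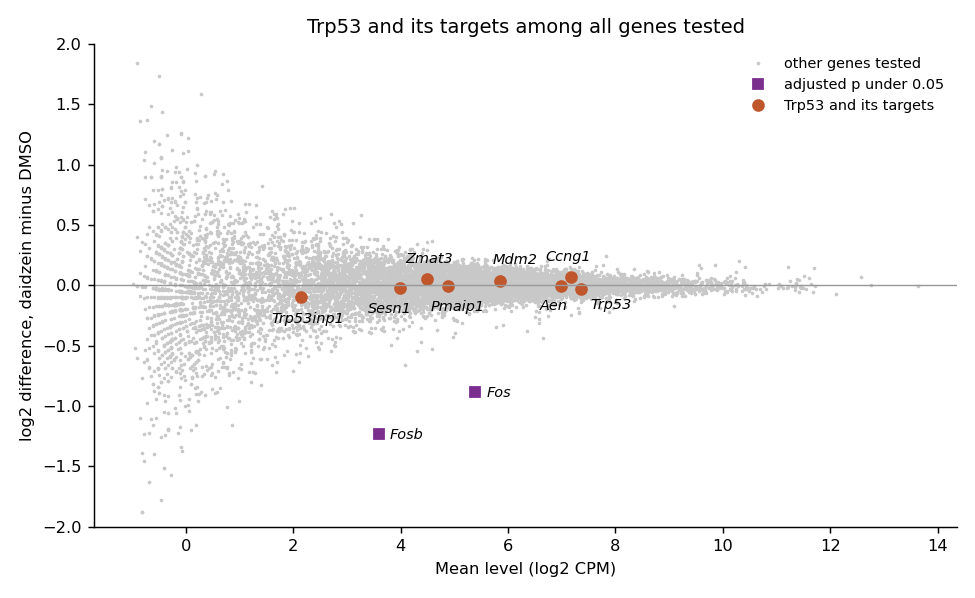
The log2 difference of daidzein minus DMSO against mean level (log2 CPM) for the 11700 genes tested (grey), with Trp53 and 7 of its targets in orange and the 2 genes with an adjusted p under 0.05 as purple squares; 5 genes lie beyond the axis limits of 2. All 8 orange points lie between -0.10 and 0.07, within the cloud of genes of like level.

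How far the counts of the 4 libraries departed from counting noise varied between the members. The spread of a gene's 4 counts around shares set by the library totals was taken as a chi-square per degree of freedom, where counting noise alone gives about 1. It was 0.994 for Zmat3, 1.51 for Aen, 1.62 for Sesn1, 1.70 for Mdm2, 1.93 for Trp53 and 2.16 for Trp53inp1, beside a median of 1.93 over 11591 genes with at least 40 reads in all. Ccng1 at 5.41 and Pmaip1 at 5.39 exceeded 85.5% and 85.4% of these genes. For both, daidzein replicate 2 was the highest library, with 2840 reads of Ccng1 and 613 of Pmaip1. At a given relative spread this chi-square grows with the reads of a gene, so it does not rank relative spread. Ccng1, with 9922 reads in all, spanned 39.72 to 43.62 FPKM. Trp53inp1, with 296 reads in all, had the smaller chi-square and spanned 0.55 to 0.78 FPKM. With each library left out in turn, the log2 difference of Pmaip1 ran from -0.18 without daidzein replicate 2 to 0.15 without daidzein replicate 1. Of the 8 members, Ccng1 was the 1 that kept its sign in all 4 fits, between 0.01 and 0.12, and 0 were called in any of them.

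**Figure D4:**
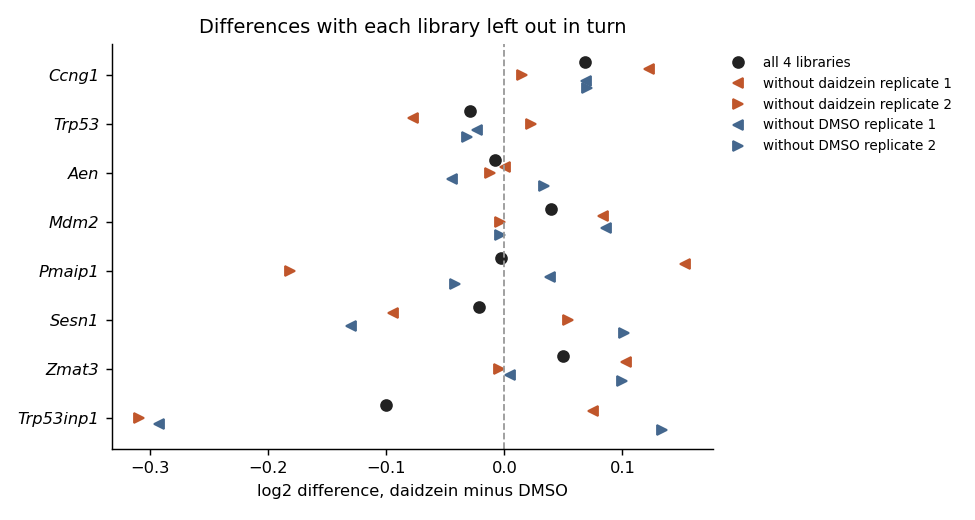
The log2 difference of daidzein minus DMSO for the 8 tested members with all 4 libraries (black circle) and with each daidzein library (orange) or DMSO library (blue) left out in turn. The points of 7 members fall on both sides of 0, and those of Ccng1 run from 0.01 to 0.12.

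The wider pathway was examined through lists of regulators, of further targets and of relatives of the members. Together they held 120 genes of the table, of which 95 had enough reads to test. By edgeR 0 of the 95 were called and 2 had an unadjusted p under 0.05, namely Sco2 and Triap1. With daidzein 41 were higher and 54 lower, beside 5697 higher and 6003 lower of all genes tested. The splits of the single lists given below were not tested. DESeq2 and limma trend also called 0. The groups did not overlap for 27 of the 95, against 29.7% of all genes tested. The annotated spans of Mdm4, Hipk2, Cdkn1a, Gadd45a, Bax, Ei24, Fas, Rrm2b, Notch1, Rap2b, Sesn2 and Phlda1, named in what follows, overlap other genes, and their reads may include those of the overlapping gene.

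Regulators of p53 were present apart from a few without reads. In the feedback and family list 7 of 11 were tested, with 3 higher, 4 lower and a median log2 difference of -0.02. Mdm4, the partner of Mdm2 that masks the activation domain of p53, had 6.87 and 8.48 FPKM with daidzein, against 7.65 and 8.66 FPKM with DMSO (fold 0.941, 95% interval 0.836 to 1.06). Ppm1d, a phosphatase that removes activating phosphates from p53 and is itself a target, had 9.61 and 9.67 FPKM with daidzein, against 9.86 and 10.4 FPKM with DMSO (fold 0.949, interval 0.833 to 1.08). The related factors Trp63 and Trp73 had 0 reads and 1 read over the 4 libraries. Trp53i13 and Trp53rkb, the other listed genes with the smallest p, had folds of 1.11 (interval 0.945 to 1.31) and 1.07 (0.911 to 1.25), and Trp53i13 overlaps the gene Abhd15, from which its reads may not be separable.

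Among 28 upstream regulators 27 were tested, with 13 higher, 14 lower and a median log2 difference of -0.0025. Atm, the kinase that signals DNA breaks to p53, had 3.35 and 4.04 FPKM with daidzein, against 3.33 and 3.83 FPKM with DMSO (fold 1.03, interval 0.895 to 1.19). Cdkn2a, whose Arf product holds Mdm2 in check, had 0 reads in every library and was the 1 gene of this list too low to test. The smallest p of the list belonged to Hipk2, a kinase of p53, with a fold of 0.880 (0.739 to 1.05), to Ppp1r13l, an inhibitor of p53, with 1.14 (0.917 to 1.40), and to Npm1, a nucleolar protein that binds Mdm2, with 1.04 (0.964 to 1.12).

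Further targets covered the whole range of levels. Of 75 measured, 58 were tested, with 24 higher and 34 lower, a median log2 difference of -0.02 and 0 calls, and 9 had at most 3 reads in all. Cdkn1a, the gene of the cell cycle inhibitor p21, had 21.4 and 21.2 FPKM with daidzein, against 24.1 and 20.99 FPKM with DMSO. Its groups overlapped and its fold was 0.945 (interval 0.848 to 1.05). In the cell cycle list 8 of 14 were tested, 1 higher and 7 lower, and besides Cdkn1a the smallest p belonged to Sfn (fold 0.744, interval 0.410 to 1.35) and Gadd45a (1.09, 0.868 to 1.36). The targets Btg2, Plk2 and Gdf15, picked out for their low values, had 1, 2 and 2 reads over the 4 libraries.

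Apoptosis targets included some of the most abundant transcripts of the pathway. In this list 12 of 14 were tested, 7 higher and 5 lower, with a median log2 difference of 0.02. Bax, which opens the mitochondrial outer membrane, had 125 and 113 FPKM with daidzein, against 122 and 106 FPKM with DMSO (fold 1.05, interval 0.943 to 1.16). Bbc3, the gene of Puma, had 12.1 and 11.5 FPKM with daidzein, against 11.5 and 12.7 FPKM with DMSO (fold 0.977, interval 0.845 to 1.13). Triap1, which protects cells from apoptosis, had 41.8 and 42.3 FPKM with daidzein, against 38.2 and 35.6 FPKM with DMSO. Its groups did not overlap and its fold was 1.14 (interval 1.01 to 1.29), with an unadjusted p of 0.0329 and an adjusted p of 1.00 by edgeR, so it did not pass. The death receptor gene Fas was low, at 0.9 and 1.05 FPKM with daidzein against 1.02 and 0.680 FPKM with DMSO (fold 1.16, interval 0.719 to 1.86), and Ei24 had a fold of 1.07 (0.970 to 1.17). Rps27l, with its match in the RefSeq window, had 310.2 and 288.5 FPKM with daidzein, against 286 and 297 FPKM with DMSO. Its fold was 1.03 (interval 0.944 to 1.12).

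DNA repair targets were all tested, 9 of 9, with 5 higher and 4 lower and a median log2 difference of 0.01. Among those with the smallest p were Rrm2b, a ribonucleotide reductase subunit (fold 1.14, interval 0.904 to 1.44), and the polymerase gene Polh (0.947, 0.838 to 1.07). In the metabolism and redox list 18 of 21 were tested, 4 higher and 14 lower, with a median log2 difference of -0.04 and 0 calls. Sco2, an assembly factor of cytochrome c oxidase, had 6.22 and 5.64 FPKM with daidzein, against 7.92 and 7.46 FPKM with DMSO. Its groups did not overlap, and the fold of 0.771 (interval 0.616 to 0.965) had an unadjusted p of 0.0254 and an adjusted p of 1.00 by edgeR, so it did not pass. Its annotated span overlaps Ncaph2 and Tymp, so its reads may be shared with them. Lpin1 had a fold of 0.775 (0.568 to 1.06) and Ddit4, an inhibitor of mTORC1, of 0.930 (0.813 to 1.06). Of 17 other targets 11 were tested, 7 higher and 4 lower, and the smallest p belonged to Lif (fold 0.861, 0.717 to 1.03), Notch1 (0.895, 0.756 to 1.06) and Rap2b (1.11, 0.927 to 1.34).

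**Figure D5:**
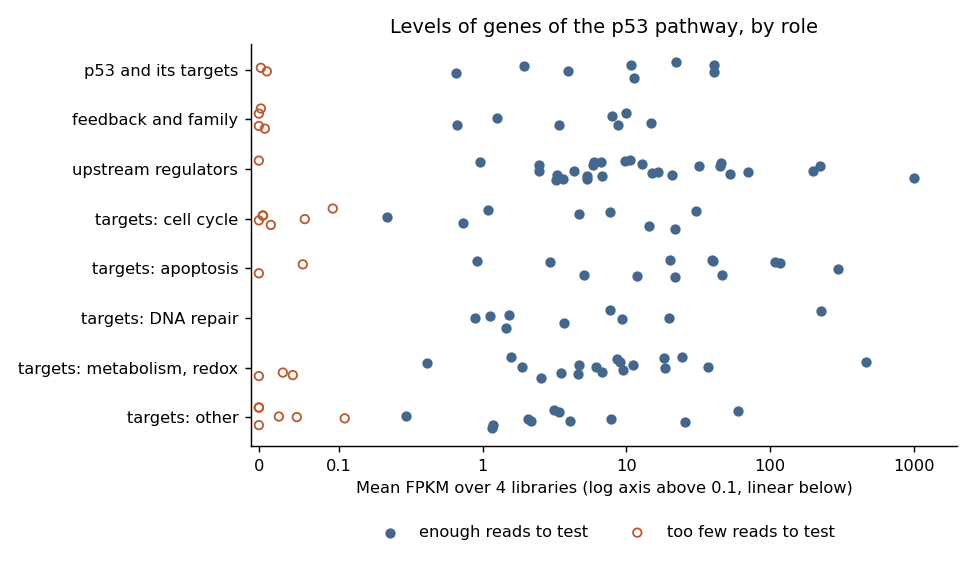
Mean FPKM over the 4 libraries (log axis above 0.1, linear below) of Trp53 and its core targets and of each listed regulator and further target by role. Points are filled where there were enough reads to test and open where there were too few. In each role but DNA repair some genes lie at or near 0, among them Cdkn2a and Trp63.

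Relatives of the members followed no common direction. Of 9 paralogs or partners listed, 6 were tested, 2 higher and 4 lower, with a median log2 difference of -0.08. Sesn2 had 10.1 and 9.11 FPKM with daidzein, against 8.78 and 10.0 FPKM with DMSO, and was the most abundant sestrin gene in every library, above Sesn1 and Sesn3. Its fold was 1.02 (interval 0.888 to 1.18) and that of Sesn3 was 1.11 (0.887 to 1.39). Phlda1 had a fold of 0.887 (0.630 to 1.25), while Phlda2 had 0 reads, as did Eda, the ligand gene of the receptor family of Eda2r, and Edar.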

How the data were processed

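The values of the deposited table are raw read counts of each gene (whole numbers with differing library totals) and FPKM computed by the authors. All 65326 FPKM values with a read lay within 0.0051 of the count per kilobase of exon scaled to the library total. The submitters' processing notes name the build mm9, DESeq2, HTSeq 0.6.1 and HISAT2 2.0.1, without saying what each did. Coordinates of all 10 members equal those of GENCODE M21 on GRCm38, so they are given on that build. The strand setting is not given in the sources used here. Of several rows with 1 symbol, the most read row was used.

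The test on counts was that of edgeR 4.0.16 under R 4.3.3 (quasi-likelihood, TMM, filterByExpr defaults), fitted on the whole table and Benjamini-Hochberg adjusted at 0.05. Intervals are 95% intervals of that fit. Alternatives used DESeq2 1.42.0 and limma 3.58.1. The edgeR fit was tested on simulated data with 50 genes changed at each of 4 sizes. It recovered 66% of 1.3-fold, 72% of 1.5-fold, 88% of 2-fold and 100% of 4-fold changes, with 4 false calls. The simulated spread between libraries was set by the level of a gene alone, so recovery in the real data may differ. No other gene's transcript matched a member's over most of its length at 95% identity by blastn 2.17.0. Lists, tests, members and the genes named (all members, up to 3 genes of each list with the smallest p, and fixed well-known genes) were chosen with earlier results of these data known. The result of 1 gene named by that rule is not reported here. The p53 consensus was searched only in the RefSeq promoter windows, since no genome sequence was used.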

Additional observations from a re-analysis of the deposited data

How the results depend on the processing

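Under all 14 alternatives tried, 0 members and 0 genes of the wider lists were called. Of 111 recomputed member differences, 0 passed and 13 had another sign than reported, 12 of them with a library left out. The median log2 difference of the members, -0.0053, lay between -0.0092 and 0.0793 with a library left out, the highest being without daidzein replicate 1. Over the whole table the 2 called genes became 11 with no filter on low counts, 1 under a filter of 5 CPM, 27 with a replicate block, and 0 by limma trend on log2(FPKM + 1), on log2(FPKM + 0.1) or with no filter. Leaving out a library gave 4 to 17 calls, the lone library of a group being assumed to vary like the other group. The cause was not tested. Deviations of same-numbered libraries from their group means had a correlation of 0.0916 over genes, and no label pairs these libraries. With 2 libraries a group the deviations within a group mirror each other, so both pairs give this 1 value. With 0 mismatches allowed the count of members with a p53 match, 1, became 0, and 0.00572% of protein-coding genes held a match, against 0.372% with 2 mismatches and 0.109% with a spacer of 0 or 1 base. Other window lengths were not run, and no ratio was computed for Phlda3 and Eda2r, at or under the floor in both groups.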
